A study of Livoneca redmanii with 3 samples.

Results

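Reverse transcriptase genes made up a large share of the counted RNA in control and low-salinity Livoneca redmanii and a small share in the low-temperature library. Livoneca redmanii is an isopod crustacean that lives as a parasite on fish. The genes described here were chosen by annotation text, not by their levels. A contig, that is an assembled transcript sequence, was taken when a protein description given to it contained the words reverse transcriptase and none of its descriptions named integrase, transposase, a retrotransposon or the polyproteins Tf2 and K02A2.6. The text was found for 480 contigs. None of these was left out for the other element words, and 9 were left out because their preferred gene name was EFTUD1, estA or NID2. That left 471 of 31922 contigs, which belong to 240 of 26084 assembled genes. An assembled gene is the group of contigs that share a name up to the suffix _i, and its level is the sum over its member contigs. Contig and gene names are printed without the prefix TRINITY_ that all of them carry.

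The animals lived on Tilapia zilli from Lake Qarun in Egypt, and RNA from the whole organism was sequenced in 3 libraries, 1 per condition. Control conditions were 35 PSU (practical salinity units) and 26 °C. For low salinity salinity was lowered gradually from 35 to 8 PSU, at a temperature the labels leave out. For low temperature the animals were cooled from 26 to 10 °C, at a salinity the labels leave out. The labels do not say how many specimens went into a library. With 1 library per condition no difference has a replicate check, no test was run, and every interval is an exact 95% interval for counting error only. Reads copied by PCR carry no molecular identifiers here and do not each stand for a molecule, so these intervals are too narrow.

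Reverse transcriptase is the enzyme that copies RNA into DNA, and mobile genetic elements are its main source in animal genomes. In elements without long terminal repeats (LINE-type elements), the reverse transcriptase is usually joined to an endonuclease that nicks the chromosome, and the new copy is made at the nick. In elements with long terminal repeats it acts with a ribonuclease H, which removes the RNA strand, and an integrase, which inserts the copy. RNA of such genes can come from active elements or from broken copies inside other transcripts, and counts alone do not tell these apart. The values are per contig and not per length, because contig lengths were not used here. The order of genes is therefore an order of counts, not of molecules.

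The libraries differed in more than these genes. The control library held 2142836 counts, the low-salinity library 1434390 and the low-temperature library 2782324. Contigs with no annotation took 40.7% of the counts in control, 34.6% under low salinity and 79.0% under low temperature. The contig with the most counts held 14.4% of control and 15.7% of low salinity, where it was contig i2 of DN4_c0_g1, the leading member gene. It held 16.2% of low temperature, where it was DN5_c0_g1_i8, which has no annotation. Genes that a whole isopod body contains were almost missing from control and low salinity. The lists for myosin heavy chain (a muscle motor), vitellogenin (a yolk protein), hemocyanin with larval serum proteins (blood proteins), tropomyosin with troponin, EF1a with GAPDH, and chitin-binding cuticle proteins had 0 to 14 counts each in control, 0 to 10 in low salinity and 3643 to 51399 in low temperature. Of the 16 myosin heavy chain contigs, 14 were at 0 in control and 16 in low salinity, while none was at 0 in low temperature. Actin, with 35 contigs, had 488 counts in control, 227 under low salinity and 16179 under low temperature. No contig carried a name from the list of fish host tissue. The part of these differences in the results on reverse transcriptase was not tested. In RNA from whole animals, fewer cells of a type and less RNA per cell cannot be told apart. EF1a with GAPDH, the housekeeping list, had 4 control counts, 1 low-salinity count and 10425 low-temperature counts. The low counts were thus not limited to lists of single tissues, and their source was not tested.

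The members summed to 716247 counts in control, 568150 under low salinity and 111059 under low temperature. As a share of all counts this was 33.4% in control (33.36 to 33.49), 39.6% under low salinity (39.53 to 39.69) and 3.99% under low temperature (3.969 to 4.015). The share was thus 1.185 times as high in low salinity as in control (1.181 to 1.189), and 8.37 times as high in control as in low temperature (8.321 to 8.427). Within annotated contigs alone the shares were 56.3%, 60.6% and 19.0% in the same order, so the direction was the same and the gap to low temperature was smaller. When the 10 largest contigs that are no members were taken out of the totals, a choice made after seeing the data, the shares were 35.6%, 43.2% and 6.47%.

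**Figure D1:**
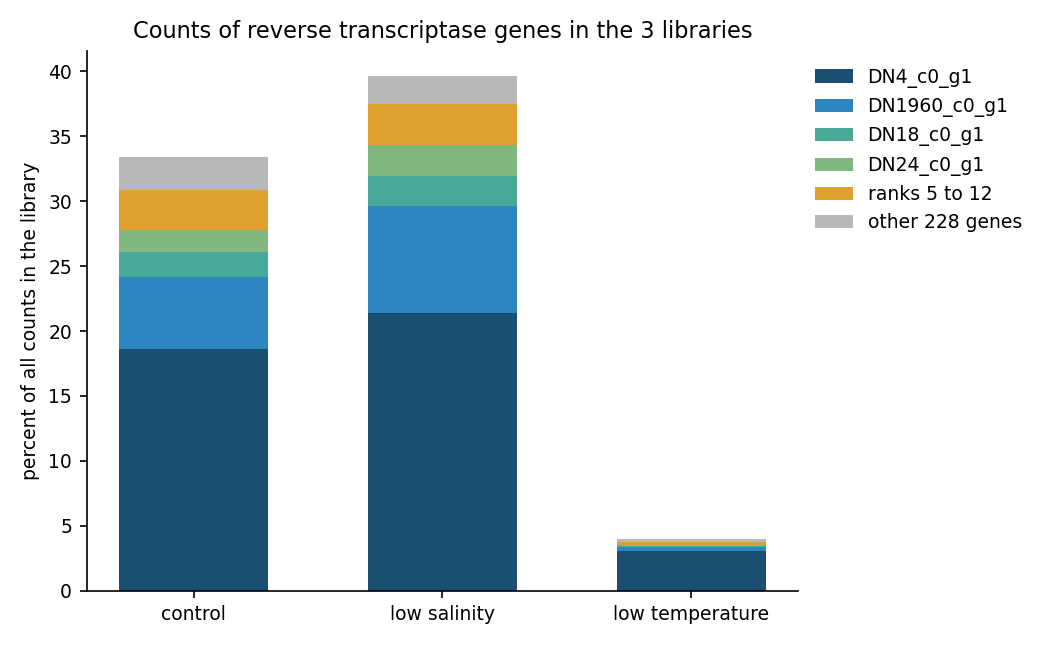
Stacked bars give the percent of all counts of a library held by the 4 leading reverse transcriptase genes, by the genes ranked 5 to 12 and by the other 228 genes, for 1 library per condition. The whole bar is 33.4% in control, 39.6% under low salinity and 3.99% under low temperature, and the dark lowest block, DN4_c0_g1, is the tallest in each.

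A single assembled gene held most of these counts. DN4_c0_g1, whose 3 contigs are all described as an endonuclease-reverse transcriptase and also as a zinc finger protein, had 398227 counts in control, 307101 under low salinity and 85223 under low temperature. It took 18.6% of all counts in control, 21.4% under low salinity and 3.06% under low temperature. Its level was high in the first 2 libraries and 6.07 times lower, as a share of all counts, in low temperature than in control (6.023 to 6.112). Among the member counts alone its part went the other way, at 55.6% in control, 54.1% under low salinity and 76.7% under low temperature. The remaining 239 genes stood at 14.8%, 18.2% and 0.929% of all counts, which is 15.98 times lower in low temperature than in control (15.78 to 16.19).

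DN1960_c0_g1, described as an RNA-dependent DNA polymerase, was the next largest gene in each library. It had 118942 counts in control, 118212 under low salinity and 8860 under low temperature, or 5.55%, 8.24% and 0.318% of the library. Its share was 1.48 times as high in low salinity as in control (1.473 to 1.497) and 17.4 times lower in low temperature than in control (17.06 to 17.81). DN18_c0_g1, the gene with the most member contigs, had 42157, 32549 and 1871 counts in control, low salinity and low temperature. DN24_c0_g1 had 36586, 34177 and 2249 counts in the same order. Both are described as RNA-dependent DNA polymerases, both took a higher share in low salinity than in control, and both were far lower in low temperature.

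The next 8 genes had between 4914 and 12679 counts in control, between 2391 and 11984 in low salinity and between 207 and 3801 in low temperature. DN247_c0_g3 had 11710, 11984 and 521 counts, and the log2 ratio of its library shares was 0.61 for low salinity against control, the highest of the 12 leading genes. DN50_c0_g1 had 12679, 9116 and 3801 counts. It was the least reduced of the 12 in low temperature, at 4.33 times below control (4.177 to 4.492). DN15_c0_g1, whose counts come mostly from contigs also described with ribonuclease H, was at the other end, with 11410, 4980 and 248 counts. Its share in low temperature was 59.7 times lower than in control (52.67 to 68.02). DN103_c1_g1 (6562, 5637 and 455 counts) and DN44_c0_g2 (5674, 4705 and 207 counts) are described as RNA-dependent DNA polymerases, and DN50_c85_g1 (4914, 4367 and 295 counts) as an endonuclease-reverse transcriptase. These 3 were higher in low salinity than in control by share of the library. DN98_c0_g1 had 6564, 2585 and 806 counts, and DN51_c0_g1 had 6574, 2391 and 312. Together with DN15_c0_g1 they were the 3 of the 12 leading genes with a lower share in low salinity than in control, at log2 ratios of -0.77, -0.88 and -0.62 by total counts. As a share of the library, all 12 were lower in low temperature than in control, with log2 ratios from -5.90 to -2.11 by total counts. With TMM scaling, which sets each library against the bulk of the contigs with a mean count of at least 10, the ratio of DN4_c0_g1 in low temperature was 0.94, that of DN50_c0_g1 1.42 and that of DN98_c0_g1 0.14, so the direction of these 3 turned with the scaling while the other 9 stayed below control.

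The 12 leading genes and the other 228 differed in low salinity. The 12 together took 30.9% of all counts in control, 37.5% under low salinity and 3.77% under low temperature. The other 228 took 2.53%, 2.12% and 0.223%. In low salinity the share of the 12 was 1.21 times that of control (1.209 to 1.218), while the share of the 228 was 0.836 times that of control (0.824 to 0.8475). Of the 12, 9 were higher and 3 lower in low salinity, and of the 228, 71 were higher and 157 lower. The same split was not taken over all genes, so it does not show what is particular to the members. The 12 were ranked by the mean share over the 3 libraries, so their size is not a finding. The gain in the share of all members in low salinity was carried by the largest genes, while most of the smaller ones took a lower share than in control.

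The members were spread very unevenly in each library. The leading gene alone held more than 50% of the member counts in all 3, and 90% of them were held by 9 genes in control, 6 under low salinity and 4 under low temperature. The inverse Simpson number, which gives how many equally abundant genes would be as diverse, was 2.91 in control, 2.91 under low salinity and 1.67 under low temperature. Without DN4_c0_g1 it was 5.63, 4.11 and 6.38. The lower diversity in low temperature thus came from the greater part of DN4_c0_g1, and among the other 239 genes the counts were spread more evenly there than in the other libraries. The median member gene had 33 counts in control, 13 under low salinity and 5.5 under low temperature. No count was recorded for 4 genes in control, 14 under low salinity and 54 under low temperature, and over 1000 counts were recorded for 28, 20 and 5. Member genes with a count thus numbered 236, 226 and 186. Of all 26084 assembled genes, 13976 had a count in control, 11147 under low salinity and 17909 under low temperature. Low temperature thus had the fewest member genes with a count but the most genes with a count over the whole assembly.

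**Figure D2:**
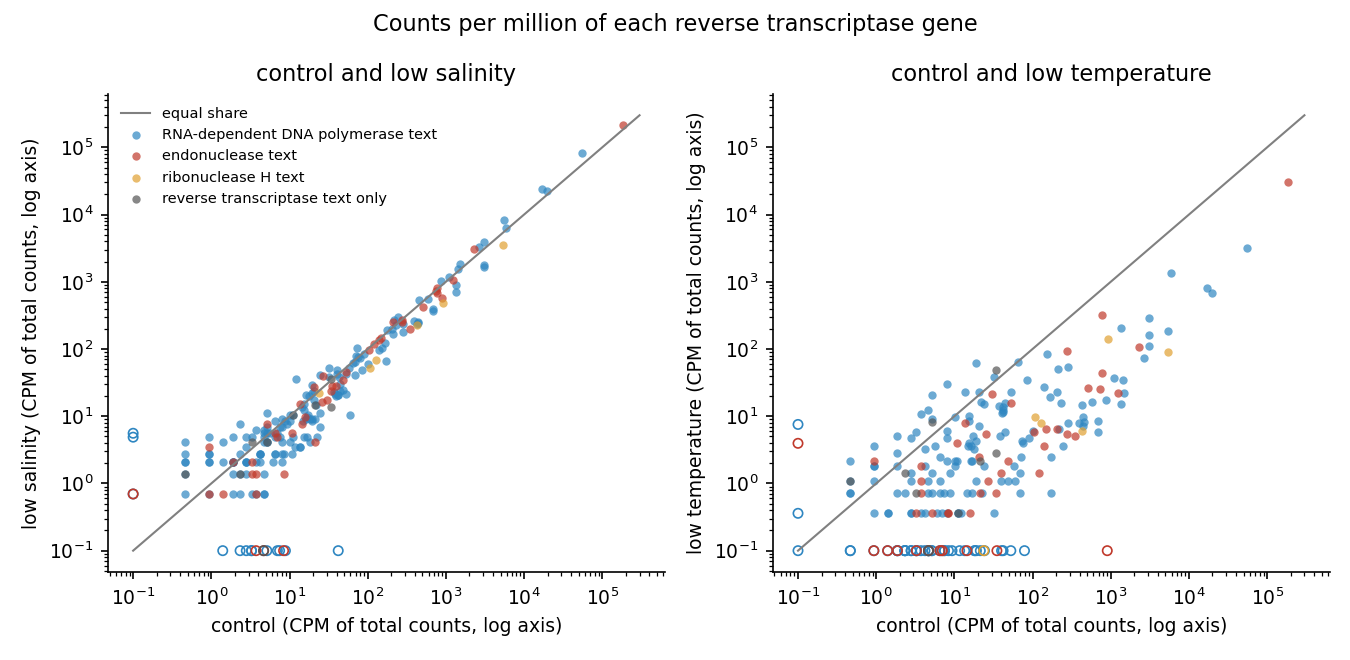
Each point is 1 of the 240 genes, placed by its CPM of total counts in control (horizontal, log axis) and in low salinity or low temperature (vertical, log axis), coloured by annotation text, with open circles at 0.1 for a count of 0 in either library. In the left panel the points lie along the line of equal share, and in the right panel 211 of the 240 lie below it.

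Gene by gene, the control and low-salinity profiles were alike and the low-temperature profile stood apart. Spearman's rho between the counts of the 240 genes was 0.91 for control and low salinity, 0.63 for control and low temperature, and 0.64 for low salinity and low temperature. These are descriptions across genes, which are not independent replicates, and low counts weaken them. The share of member counts that would have to move from gene to gene to turn a profile into another was 5.84% between control and low salinity, 25.5% between control and low temperature, and 28.1% between low salinity and low temperature. Among the 20 largest genes of each library, 17 were shared by control and low salinity and 14 by control and low temperature.

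Most members were lower in low temperature than in the other libraries when read as shares of the library. Against control, 211 of the 240 genes had a lower share, 28 a higher share, and 1 had no count in either. Of the 211, 53 had no count at all in low temperature. Against low temperature, low salinity had a higher share in 198 genes and a lower share in 35, and 7 had no count in either library. Between low salinity and control, 80 genes were higher and 160 lower. These numbers were not taken over all genes, so they do not show what is particular to the members. Among all genes with a mean count of at least 10, more were also lower than higher in low salinity. By total counts 19.5% were at least 2-fold lower than in control and 4.32% at least 2-fold higher.

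Of the 240 genes, 149 averaged at least 10 counts across the libraries and entered the ratios, and 91 did not. Those that entered held 99.9% of the member counts in control and in low salinity and 99.8% in low temperature. Without the control count 35 of these genes would not have reached the minimum, without the low-salinity count 12 and without the low-temperature count 10. Of all 5503 genes that entered, these numbers were 1371, 568 and 2894 in the same order. Many of all genes thus entered only through a high low-temperature count. The values of all genes given below are therefore no neutral measure, for low salinity as for low temperature. Just inside the minimum were DN52100_c0_g1 and DN7274_c0_g1, each with a mean of 10, and just outside was DN19703_c1_g1 with 9.67. The log2 ratios below are ratios of CPM, which is the share of total counts on a larger scale, with a prior count of 0.5, called higher or lower at 2-fold. They are given with TMM scaling and by total counts side by side, since they differ most for low temperature. The median over all 5503 assembled genes that entered, low temperature against control, was 6.33 with TMM and 3.02 by total counts.

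In low salinity against control, 3 of 149 member genes were called higher with TMM and 2 by total counts, beside 5.07% and 4.32% of all genes. Called lower were 15 with TMM and 24 by total counts, beside 14.6% and 19.5% of all genes. The median member ratio was -0.02 with TMM and -0.29 by total counts. The median of all genes was 0.00 with every scaling tried, but it is no measure to set the members against. Of the 5503 genes, 2894 entered only through their low-temperature counts, and a gene with no count in either library compared gets a ratio of 0 by the calculation. Over all scalings tried the member median lay between -0.29 and 0.28, so its direction turned with the scaling. Most members were thus within 2-fold. So were most genes, but those without a count in both libraries lie within 2-fold by the calculation. They also lower the percentages of all genes called, so no likeness or difference between members and all genes is read from them.

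In low temperature against control, 49 of 149 member genes were called higher with TMM and 5 by total counts, beside 58.3% and 51.0% of all genes. Called lower were 65 with TMM and 126 by total counts, beside 27.9% and 46.5% of all genes. The median member ratio was -0.69 with TMM and -4.14 by total counts. Relative to the median of all genes it was -7.02 with TMM and -7.17 by total counts, and from -7.17 to -7.01 over the scalings tried. A scaling shifts all genes of a comparison by nearly the same amount. The narrow range of this difference therefore follows from the calculation and is no check of it. The ratios of all genes formed a low and a high range, and the members lay in the low range. By total counts 2752 of the 5503 genes, or 50.01%, had a log2 ratio above 3, a value chosen after the distribution was seen. None of the 149 members did, the highest being 1.95.

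**Figure D3:**
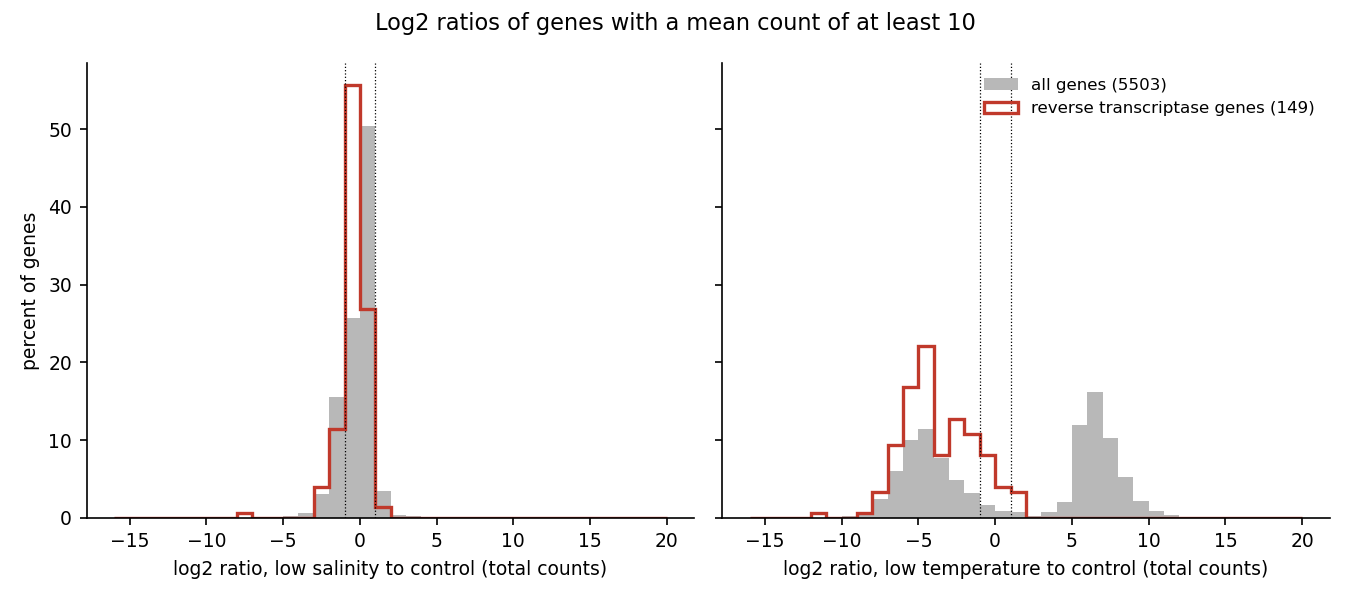
Histograms give the percent of genes (vertical) by log2 ratio of total-count shares (horizontal) for the 149 reverse transcriptase genes, in red outline, and for all 5503 assembled genes with a mean count of at least 10, in grey; dotted lines mark 2-fold. In low temperature against control all genes form a range below about 2 and another above 3, and the red outline ends at 1.95.

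In low salinity against low temperature, 65 of 149 member genes were called higher in low salinity with TMM and 116 by total counts, beside 26.8% and 45.2% of all genes. Called lower were 52 with TMM and 8 by total counts, beside 59.3% and 51.2% of all genes. The median member ratio was 0.63 with TMM and 3.87 by total counts, beside -5.94 and -2.73 for all genes. This comparison shares its low-temperature library with the comparison of low temperature and control, so it is not a separate view of that library.

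The genes at the ends of the low-temperature ratios were small ones. The 5 highest against control were DN1270_c2_g1 (11, 10 and 57 counts in control, low salinity and low temperature), DN53747_c0_g1 (17, 13 and 85), DN769_c0_g1 (41, 12 and 173), DN2549_c0_g1 (8, 1 and 30) and DN843_c0_g1 (10, 1 and 34). All 5 are described as RNA-dependent DNA polymerases, and each had more counts in low temperature than in the other 2 libraries. Their shares in low temperature were 3.99 times that of control for DN1270_c2_g1 (2.071 to 8.44), 3.85 times for DN53747_c0_g1 (2.269 to 6.917) and 3.25 times for DN769_c0_g1 (2.301 to 4.687). The log2 ratios of the 5 were between 1.35 and 1.95 by total counts and between 4.81 and 5.42 with TMM, so all 5 were above control with both scalings. They were picked as the highest ratios, so this direction and the intervals are descriptions of picked genes. DN1270_c2_g1, DN2549_c0_g1 and DN843_c0_g1 also reached the minimum only through their low-temperature counts. Even the highest of them stood below the median of all genes with TMM, 6.33, and by total counts, 3.02. DN1654_c0_g2, with 29, 5 and 63 counts, was among the 5 lowest in low salinity against low temperature.

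The 5 lowest in low temperature against control had no count there. DN7_c0_g1, whose only member contig is described with endonuclease text, had 1934 counts in control, 819 under low salinity and 0 under low temperature. Against a floor of 3 counts in the low-temperature library its share was at least 837-fold lower than in control. The gene as a whole was not silent, since its 13 contigs together had 27966, 10696 and 438 counts. DN81_c1_g1 had 169, 106 and 0 counts, DN766_c3_g1 had 113, 31 and 0, and DN1128_c0_g1 had 86, 69 and 0. With the same floor these 3 were at least 73.1-fold, 48.9-fold and 37.2-fold lower in share than in control. DN6481_c0_g1 (75, 41 and 0 counts) and DN300_c0_g1 (51, 32 and 0 counts) completed the 5 highest in low salinity against low temperature.

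DN1186_c0_g1 was recorded in control only. Its member contig had 90 counts in control and 0 in both other libraries, so its share was at least 20.1-fold lower in low salinity and at least 38.95-fold lower in low temperature against a floor of 3 counts per library. The next lowest in low salinity against control were DN785_c0_g1 (126, 15 and 3 counts), DN843_c0_g1 as above, DN107_c23_g1 (46, 6 and 2 counts) and DN7252_c6_g1 (48, 7 and 2 counts). The share of DN785_c0_g1 was 5.62 times lower in low salinity than in control (3.282 to 10.34). The highest in low salinity was DN1522_c0_g1, with 26, 51 and 1 counts, at 2.93 times the control share (1.793 to 4.896). It was followed by DN271_c0_g3 (11, 16 and 25 counts), DN2189_c12_g4 (52, 58 and 5), DN8_c4_g1 (69, 74 and 1) and DN247_c0_g3. For DN271_c0_g3 the interval of the ratio, from 0.947 to 5.178, includes equal shares, so a difference was not detectable at this depth. The genes of this paragraph were picked by their ratios, so the intervals describe picked genes. DN1522_c0_g1 reached the minimum only through its low-salinity count. DN1186_c0_g1, DN785_c0_g1, DN107_c23_g1 and DN7252_c6_g1 reached it only through their control counts.

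The members can be grouped by what else their descriptions say. Endonuclease text was given to 81 contigs in 51 genes, and these held 59.3% of member counts in control, 57.2% under low salinity and 80.2% under low temperature. Nearly all of that was DN4_c0_g1. Without it, endonuclease contigs held 8.43% of the remaining member counts in control, 6.89% under low salinity and 14.8% under low temperature, still with the highest part in low temperature. DN427_c1_g4, a gene with endonuclease text, showed 1666, 1151 and 892 counts, and was named for its small difference after its values were seen. Its share in low temperature was 2.42 times below control (2.234 to 2.633), though above it with TMM at a log2 ratio of 2.26, a small gap beside the 15.98 times of all members but the leading gene.

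Ribonuclease H text without endonuclease text was given to 32 contigs in 12 genes, which held 2.02% of member counts in control, 1.31% under low salinity and 0.758% under low temperature. In 6 genes these contigs supplied most of the counts summed over the 3 libraries, though not in every library of each gene. All 6 had a lower share of the library in low salinity than in control and in low temperature than in control. Of all 240 members, 160 and 211 were lower in the same comparisons, so this direction is not particular to the class. With TMM, DN300_c0_g1 was above control in low salinity at a log2 ratio of 0.18 and DN128_c0_g1 and DN1212_c0_g1 above it in low temperature at 0.85 and 0.06. DN128_c0_g1, with 1963, 698 and 394 counts, and DN608_c0_g1, with 927, 328 and 17, were the largest after DN15_c0_g1. The largest class was RNA-dependent DNA polymerase text, with 345 contigs in 182 genes, which held 38.6% of member counts in control, 41.4% under low salinity and 18.9% under low temperature. Reverse transcriptase text with nothing more was given to 13 contigs in 12 genes and held 0.0589%, 0.0313% and 0.174%.

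Many members shared a nearest annotated protein. The 471 contigs matched 189 distinct seed orthologues, the proteins from which the descriptions were taken. The most common was shared by 99 contigs in 30 genes, with 46811, 34990 and 2694 counts in control, low salinity and low temperature. The next was shared by 34 contigs in 22 genes, with 68970, 58133 and 15308 counts. A contig of DN4_c0_g1 is in this second set, which had 18195, 10668 and 3623 counts without it. With or without that contig, the second set kept a larger part of its control count in low temperature than the first, which holds no contig of DN4_c0_g1. Reads that fit several similar contigs are split between them by the estimate, so values of single contigs, and of genes that share a nearest protein, are less certain than their sums.

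Contigs of the same assembled gene were compared within a library, where scaling plays no part. Of the 240 genes, 174 had 1 member contig, 66 had 2 or more and 26 had 5 or more, up to 29 in DN18_c0_g1. Where a gene had 2 or more member contigs and at least 10 member counts, the leading contig held a median of 65.6% of the gene in control, 66.1% under low salinity and 68.1% under low temperature. The leading contig was the same in control and low salinity in 52 of 62 genes, in control and low temperature in 43 of 57, and in low salinity and low temperature in 40 of 56. With at least 100 counts in both libraries it was the same in 38 of 40, 14 of 17 and 14 of 16. The share of a gene's counts that sat on other contigs in the second library had a median of 8.14% between control and low salinity, 19.2% between control and low temperature, and 17.8% between low salinity and low temperature. With at least 100 counts in both libraries the medians were 6.34%, 11.4% and 13.95%, so the distances were smaller in genes with more counts and the order of the last 2 pairs turned.

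The contig make-up of the 2 largest genes moved little although their levels differed widely. In DN4_c0_g1 contig i2 held 77.6% of the counts in control, 73.5% under low salinity and 75.8% under low temperature, so 1.84% of the counts lay on other contigs in low temperature than in control. In DN1960_c0_g1 contig i11 held 76.5%, 80.6% and 83.0%, and 6.58% of the counts lay on other contigs in low temperature than in control. The distance was larger in the next 2 genes, at 19.6% in DN18_c0_g1 and 11.4% in DN24_c0_g1. DN18_c0_g1 kept i11 as its leading contig, at 19.3%, 21.2% and 20.7%, and counts were recorded on 29 of its 29 member contigs in control, 29 under low salinity and 22 under low temperature. In DN24_c0_g1 the leading contig was i37 in control, with 36.5% (35.98 to 36.97), and i23 in low salinity and low temperature, with 35.3% (34.75 to 35.77) and 37.6% (35.61 to 39.66).

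Other genes changed their make-up. In DN50_c0_g1, the least reduced of the leading genes in low temperature, contig i11, which carries endonuclease text, held 20.2% in control (19.53 to 20.93), 20.04% under low salinity (19.22 to 20.88) and 36.4% under low temperature (34.85 to 37.94). In DN333_c0_g2, which had 452, 241 and 140 counts, contig i7 held 34.5% in control (30.13 to 39.1), 33.2% under low salinity (27.28 to 39.53) and 2.86% under low temperature (0.7838 to 7.154). Its contig i17 went from 7.52% (5.265 to 10.35) and 12.03% (8.209 to 16.82) to 32.1% (24.51 to 40.55), and contig i16 had 84 counts in control and 0 in both others. In all, 54.9% of the counts of DN333_c0_g2 lay on other contigs in low temperature than in control, the greatest distance among genes with at least 100 counts in each.

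DN847_c0_g1 took nearly the same share of each library, with 139 counts in control, 88 under low salinity and 179 under low temperature, or 0.00649%, 0.00613% and 0.00643%. Its contigs did not stay alike. Contig i4 held 41.7% of the gene in control, 40.9% under low salinity and 84.9% under low temperature, contig i16 held 30.2%, 55.7% and 15.1%, and contig i6 held 28.1% in control, 3.41% under low salinity and none under low temperature. By total counts, a nearly equal share of the gene here covered contigs that differed in opposite directions. With TMM scaling the gene was higher in low temperature than in control, so its level was not equal there. Among the 5 genes with the most contigs the distance between control and low temperature was 19.6% for DN18_c0_g1, 21.7% for DN51_c0_g1 with 16 contigs, 34.1% for DN185_c0_g1 with 13 contigs and 3030, 2249 and 95 counts, 15.1% for DN98_c0_g1 with 12 contigs, and 35.6% for DN6514_c0_g1 with 9 contigs and 112, 60 and 63 counts. DN50_c0_g8, with 1637, 992 and 123 counts, had a distance of 19.0%. In DN98_c0_g1 the leading contig was i17 in control, at 29.6% (28.5 to 30.72), and i6 in low temperature, at 30.6% (27.48 to 33.96).

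**Figure D4:**
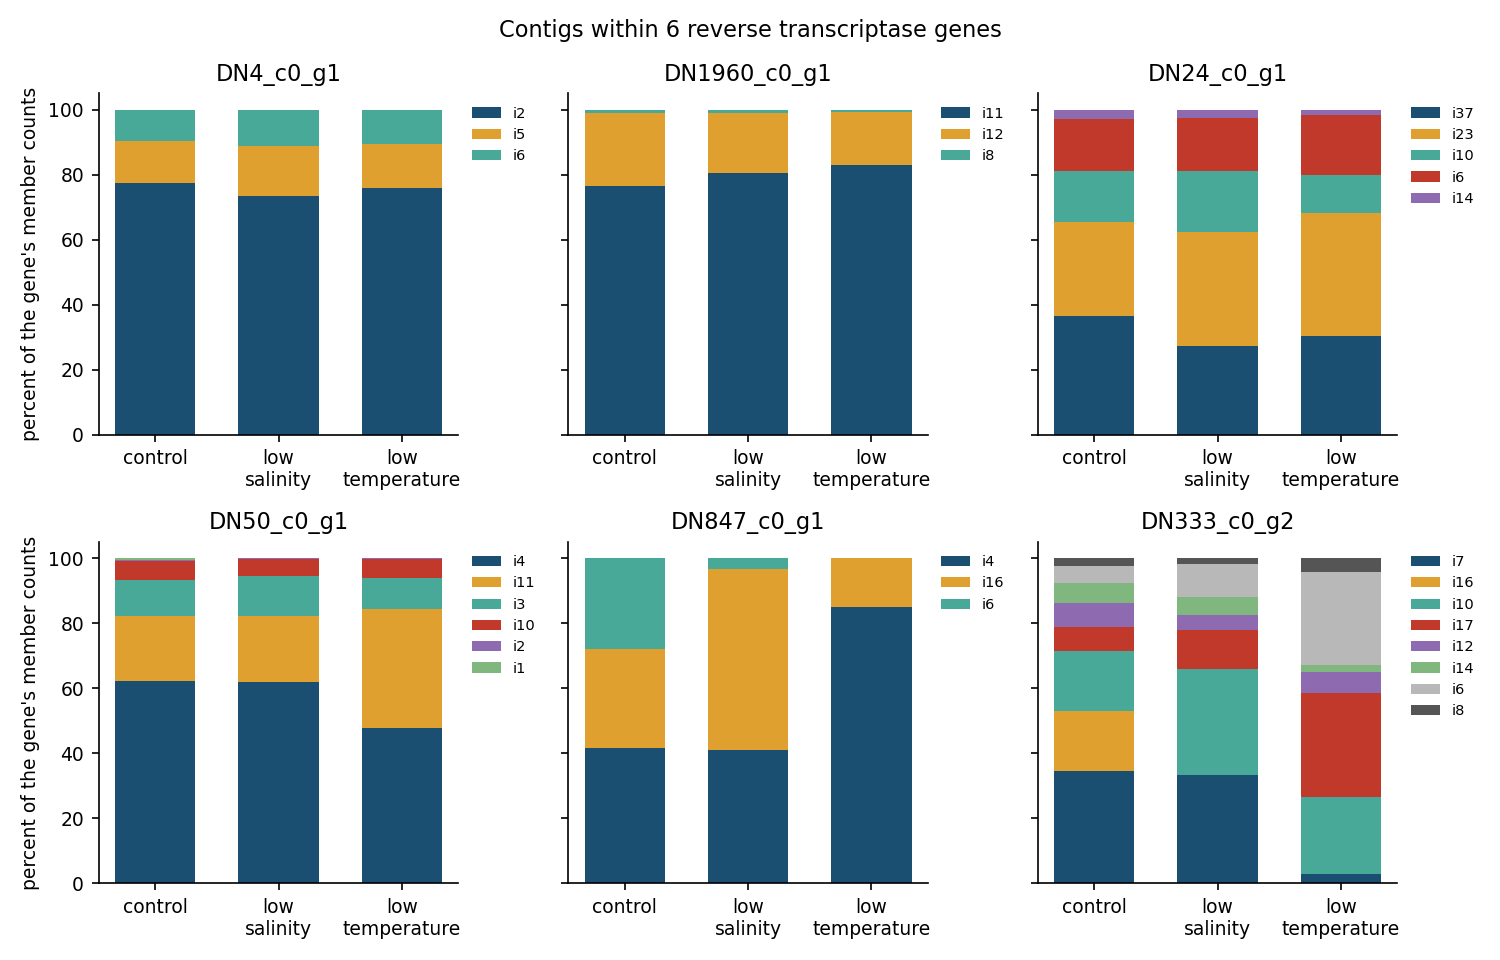
Stacked bars give the percent of a gene's member counts (vertical) on each of its contigs, named by the end of the contig name, in the 3 libraries for 6 genes. The blocks of DN4_c0_g1 and DN1960_c0_g1 keep nearly the same heights. In DN24_c0_g1 11.4% of the counts, summed over its contigs, lie on other contigs in low temperature than in control. Contig i11 of DN50_c0_g1 has its largest part in low temperature, and DN847_c0_g1 and DN333_c0_g2 are made up differently in each library.

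Contigs of these genes that the rule left aside were also low in low temperature. The member genes had 325 further contigs without the text, in 87 of the 240 genes, and these held 8.85% of all counts in control, 9.01% under low salinity and 0.417% under low temperature. Those with another annotation went from 6.16% in control to 5.83% in low salinity, while those with none went from 2.69% to 3.18%. In 153 genes every contig was a member. Contigs with text of other mobile element parts, such as integrase, transposase, gag or ribonuclease H without reverse transcriptase, numbered 500 in 281 genes. They held 14.2% of all counts in control, 14.8% under low salinity and 0.623% under low temperature, which is 22.7 times lower in low temperature than in control (22.39 to 23.09), against 8.37 times for the reverse transcriptase genes and 15.98 times without DN4_c0_g1. Of the 175 such genes that entered, 48 were higher and 87 lower in low temperature than in control with TMM, and 9 and 138 by total counts, beside 58.3% and 27.9% of all genes with TMM and 51.0% and 46.5% by total counts.

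Genes of RNA silencing, the machinery that is known in animals to hold mobile elements down, were higher in low temperature, as were the muscle, yolk, blood, cuticle and housekeeping lists given above. The list had 9 contigs, and they summed to 0 counts in control, 2 under low salinity and 529 under low temperature. SND1, a nuclease with Tudor domain, had 288 counts in low temperature, AGO1, an Argonaute protein, 96, PIWIL1, an Argonaute of the piRNA pathway, 39, and PLD6, a nuclease of piRNA formation, 28. None of these 4 had a count in control, and in low salinity SND1 and AGO1 had 1 count each and the others 0. The 3 genes of the list that entered, SND1, AGO1 and PIWIL1, reached the minimum only through their low-temperature counts. They were higher in low temperature than in control with TMM and by total counts, but the minimum fixed this direction in advance. At least 2-fold higher were 58.3% and 51.0% of all genes. In control, 0 of 2142836 counts allows up to 0.00014% of the library, so these genes were not detectable there at this depth. No contig carried a name of telomerase, the reverse transcriptase that extends chromosome ends.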

How the data were processed

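RNA from whole organisms was sequenced in 3 libraries, prepared with an Ion Total RNA-Seq kit and 18 PCR cycles for an Ion Torrent S5, per the labels' protocols. Per the submitters' processing notes the tools included Salmon 1.10.2, with fastp 0.23.2 and FastQC 0.11.9. The assembly and annotation tools are not given in these sources, and no genome, sequence or coordinate was used. The authors deposited estimated counts per contig as whole numbers. Since Salmon can give fractions, it is assumed that they were rounded first, and contigs that share sequence can divide reads by estimate. A contig listed once per matched protein repeats its counts in the deposited table and was counted once here. The authors also deposited a normalized signal for 1 contig per gene, which they made by multiplying its count by 1 factor per library, and log2 fold changes for 3 comparisons, whose model is not stated. These deposited signal and log2 values were used only for the closing values.

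Counts of member contigs were summed per assembled gene. The members and all gene lists were chosen with earlier results of these data known. Totals were 2142836, 1434390 and 2782324 counts for control, low salinity and low temperature, and a floor of 3 counts is 0.00014%, 0.000209% and 0.000108% of them. Shares carry exact binomial (Clopper-Pearson) 95% intervals and ratios exact conditional binomial ones. Log2 ratios of CPM used a prior count of 0.5 and TMM factors from contigs with a mean count of at least 10, which were 2.42, 1.99 and 0.208 (edgeR 4.0.16, R 4.3.3). A ratio was called at 2-fold. Because the TMM factors differ widely, ratios by total counts stand beside them. The genes named are the 12 with the highest mean share, the 5 highest and 5 lowest ratios of each comparison, the 5 with the most member contigs, and the 5 with the greatest contig distance between control and low temperature. Alternatives covered the member rule, the denominator, median-of-ratios factors (DESeq2 1.42.0), upper-quartile and other TMM scalings, count minimums and the prior count. The calculation was tested on simulated data. Tables and figures used Python 3.11.15, pandas 2.3.3, numpy 2.4.6, scipy 1.17.1 and matplotlib 3.10.9.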

Additional observations from a re-analysis of the deposited data

How the results depend on the processing

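Of 114 recomputed values, 46 stayed within tolerance, which was the 95% interval for a share, 1.5 times for a number of genes, and the same sign and side of 2-fold for a median. Beyond it 54 shares and numbers moved, 9 medians passed 2-fold and 5 medians changed sign. The cause was not tested beyond what a setting itself changes. The member share, for control, low salinity and low temperature, was 42.27%, 48.62% and 4.409% with every contig of a member gene, 45.37%, 52.5% and 7.587% with each listing counted, 13.57%, 17.31% and 0.8532% when every listing of a contig had to carry the text (which leaves out DN4_c0_g1, also listed as a zinc finger), 56.33%, 60.6% and 18.99% of annotated counts, and 14.84%, 18.2% and 0.9286% without the leading gene. Chosen after seeing the data, it was 35.64%, 43.19% and 6.473% without the 10 largest other contigs, and 33.53% and 39.71% in control and low salinity with the 3 preferred names kept. Control and low salinity were above low temperature in all of these. Member genes higher in low salinity than in control were 5 with median-of-ratios factors, 10 with upper quartile, 8 with TMM on gene sums, 0 at a mean count of at least 50, 22 with no minimum, and, chosen after seeing the data, 7 with TMM on all contigs and 9 with TMM and minimum from the 2 libraries. Lower were 24 by total counts, 1 at the minimum of 50 and 38 with none. Their median turned positive, at 0.10 with median-of-ratios, 0.28 with upper quartile, 0.17 with TMM on gene sums, 0.13 with TMM on all contigs and 0.21 with TMM on the 2 libraries. In low temperature against control, 5 were higher by total counts, 5 with upper quartile, 20 at the minimum of 50, 85 with none and 23 with TMM on all contigs. Lower were 126 by total counts, 125 with upper quartile, 38 at the minimum of 50 and 102 with none. The median was -4.14, -1.32, -3.91 and -2.23 by total counts, median-of-ratios, upper quartile and TMM on all contigs. In low salinity against low temperature, 116 were higher by total counts, 122 with upper quartile, 43 at the minimum of 50 and 98 with none. Lower were 8, 6, 22 and 88 in that order, and 22 with TMM on all contigs. The median was 3.87, 1.39, 4.23, 1.01 and 2.37 by total counts, median-of-ratios, upper quartile, TMM on gene sums and TMM on all contigs. With every contig counted, the leading gene held 43.96%, 44.04% and 69.48% of the gene set in control, low salinity and low temperature, and 81 genes kept the leading contig between control and low salinity. At 50 counts, 20 genes kept it between control and low temperature and 18 between low salinity and low temperature, since fewer genes qualify. No paired analysis was possible because each condition has 1 library, and for the same reason no replicate could be left out. Depth limits the small genes: in low temperature 51 members had 1 to 3 counts and 54 had none.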

Other observations

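The authors' deposited normalized table holds all 240 genes, each by 1 contig and not by a sum. For 200 genes that contig is a member, and for 40 it is another contig of the gene. The representing contigs that are members hold 49.0% of the member counts in control, 44.5% under low salinity and 62.1% under low temperature. The value of 18 genes is the count times the number of listings. DN4_c0_g1 is represented by contig i2, counted for 2 listings, and its log2 fold change in the authors' deposited table is 0.52 for low salinity against control and 0.30 for low temperature against control. DN50_c0_g1 is represented there by contig i1, which had 53 counts in control and 0 in the others, while the gene's member contigs summed to 12679, 9116 and 3801. Its log2 fold change in the authors' deposited table is -6.98 for low salinity and -6.94 for low temperature. DN50_c85_g1, represented by a contig with 52, 0 and 0 counts, has -6.91 and -6.87 in the authors' deposited table, while its member contigs summed to 4914, 4367 and 295. DN24_c0_g1 is represented by a contig without the text, with 85, 51 and 0 counts. Over the 240 genes the authors' deposited table has a median log2 fold change of -1.08 for low temperature against control, beside 4.80 over all its genes, and of -0.01 for low salinity against control, beside 0.00.

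A KEGG pathway, which links a protein to a named metabolic or signalling route, was assigned to 92 of the member contigs in 47 genes. These contigs supplied 7.27% of all counts with a KEGG pathway in control, 4.69% under low salinity and 0.391% under low temperature. The functional category G, used for carbohydrate transport and metabolism, was given to 78 member contigs, and category S, function unknown, to 351.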
